A study of Homo sapiens with 6 samples.

Results

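The array signal of microRNA precursors was examined in HCT116, a cell line established from a human colorectal carcinoma, which the titles and cell line field spell HTC116. The probe sets were chosen by name and by signal: the platform's gene symbol had to be that of a microRNA gene, and the mean over the 3 control arrays had to be 6 or more on the log2 scale. Of 16098 named probe sets on the array, 1227 belonged to microRNA genes outside the miR-196, miR-149 and miR-200 families, and 138 of these passed the signal threshold. These 138 probe sets, called members here, stand for 122 of 1063 precursor genes. Members are described beside the 1089 precursor probe sets below the threshold.

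The study compared 2 groups of 3 arrays. Control cells had been stably transduced with an empty vector, and the other cells with a vector for miR-196b; the latter are called the arrays labelled miR-196b. The 3 arrays of a group are described as biological replicates, but separate transductions are not mentioned, and p-values then cover only the spread among these samples, which may be technical. The array reads RNA of precursor genes and gives no level of a mature microRNA. As a check of the labels, MIR196B itself read 8.09, 7.91 and 7.91 in control and 8.21, 7.93 and 8.01 in the labelled arrays, a log2 change of 0.08 (limma adjusted p = 0.819), so its probe set did not bear out the label. MIR196A2 of the same family read 2.88 to 3.21 in control and 10.5 to 10.8 in the labelled arrays, a log2 change of 7.55 (limma adjusted p = 4.53e-07). The labelled arrays thus differed in a miR-196 precursor other than MIR196B. Which hairpin the vector held is not given in the sources used here. Directions are given by the labels.

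MicroRNA genes are transcribed as long primary transcripts, often from an intron of a host gene, and often several hairpins lie on a single transcript, a polycistron. The nuclear enzyme DROSHA with its partner DGCR8 cuts out the hairpin, XPO5 exports it, and DICER1 trims it to the mature strand that guides an Argonaute protein. Bases 2 to 8 of the mature strand, the seed, pair with target messenger RNAs, so that microRNAs with equal seeds are placed in a family. In colon cancer cells, miR-21, miR-221 and miR-222 and the miR-25 family are known as growth-promoting microRNAs, and let-7, miR-15a, miR-194 and miR-375 as growth-restraining ones.

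Members that share a seed are shown first, because the comparison by seed family rests on them. The list is not complete: MIR3125 with MIR3916, and MIR3689A with MIR3689F, also share a seed. The mature sequences come from RefSeq (GRCh38.p14), are written 5′ to 3′, and have the seed in capitals.
hsa-miR-221-3p: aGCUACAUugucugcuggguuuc
hsa-miR-222-3p: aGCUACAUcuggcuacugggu
hsa-let-7a-5p: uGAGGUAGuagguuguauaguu
hsa-let-7d-5p: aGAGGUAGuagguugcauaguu
hsa-miR-98-5p: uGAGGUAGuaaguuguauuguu
hsa-miR-25-3p: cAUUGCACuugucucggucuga
hsa-miR-92b-3p: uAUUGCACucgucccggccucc
hsa-miR-181b-5p: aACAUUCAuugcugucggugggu
hsa-miR-181d-5p: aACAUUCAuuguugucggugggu
hsa-miR-21-5p: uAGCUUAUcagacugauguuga
hsa-miR-590-5p: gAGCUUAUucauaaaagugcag

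A mature sequence was found for 111 member genes, and 8 seeds were shared by at least 2 of them, over 15 genes. The microRNA named in the labels, miR-196b, has the seed in capitals here.
hsa-miR-196b-5p: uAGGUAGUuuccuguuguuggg
The same 7 letters occurred in 3 of the 156 mature sequences of members, one base further along, where they begin at base 3 instead of base 2.
hsa-let-7a-5p: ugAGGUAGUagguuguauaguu
hsa-let-7d-5p: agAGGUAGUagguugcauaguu
hsa-miR-98-5p: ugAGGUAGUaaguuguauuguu
Of 2351 distinct mature sequences in the table, 14 held these letters. The match describes the sequences only.

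No member passed the test between the groups. In limma, 0 of 138 members had an adjusted p below 0.05, against 0.0559% of all named probe sets. At an unadjusted p below 0.05, 19 members passed, with 11 on the higher side and 8 on the lower. That is 13.8% of members beside 9.87% of all named probe sets, of which 5.73% were higher and 4.14% lower. The share was 10.5% over the dimmer precursor probe sets. Over other named probe sets with a control mean of 6 or more it was 9.78%. The 3 labelled arrays lay wholly above or below the 3 control arrays for 20 members (14.5%), beside 17.2% of all named probe sets. This share was 12.8% over the dimmer precursor probe sets and 22.9% over the other named probe sets at 6 or more. Of these 20, 12 were higher and 8 lower, beside 10% and 7.18% of all named probe sets. Because the control mean chose the members, it enters every difference below, and none of these counts is independent of the choice.

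Changes were small and centred near 0. The median log2 change, labelled minus control, was -0.0053 over the members, -0.0035 over the dimmer precursor probe sets and 0.0069 over all named probe sets. The middle 80% of members lay between -0.23 and 0.27, and 67 were above 0 and 71 below, where 52% of all named probe sets were above 0 and 48% below. The 95% interval of the log2 change reached a median of 0.295 to either side. For 106 members the interval lay inside a 1.5-fold change in either direction (0.58 on the log2 scale), and for 136 inside a 2-fold change. The median within-group SD of members was 0.177, beside 0.0859 over 7046 other named probe sets with a control mean of 6 or more. Brightness was not matched: the median control level was 6.76 for members and 7.7 for the others.

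**Figure D1:**
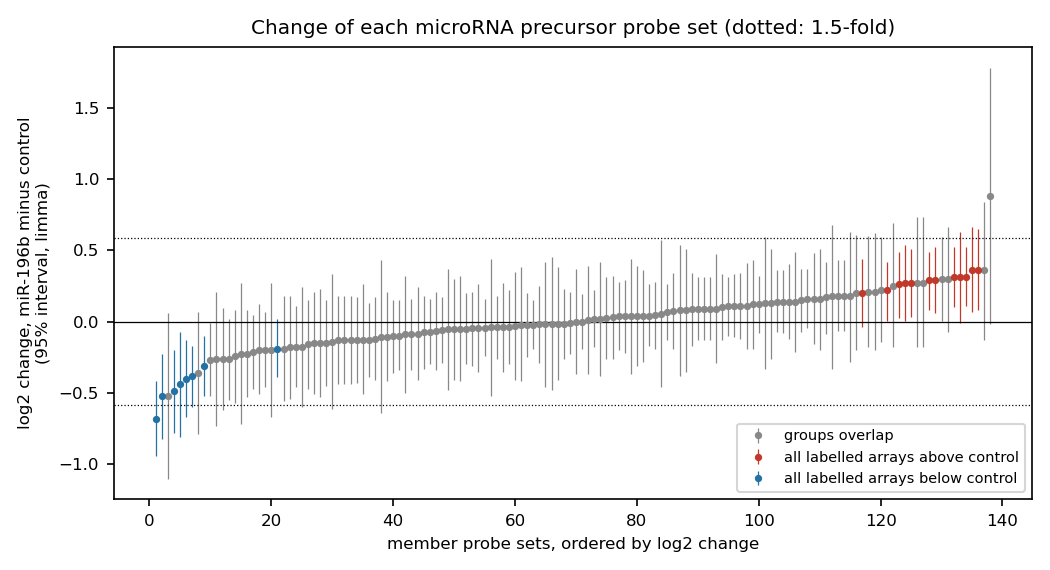
The log2 change of each of the 138 member probe sets, labelled miR-196b minus control, with its 95% interval from limma, in order of size. Red and blue points mark the 12 and 8 members whose groups do not overlap, and the dotted lines mark 1.5-fold; the changes run from -0.68 to 0.88.

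Clusters were compared next. Precursor genes on the same strand whose consecutive starts lay no more than 10 kb apart were taken as a cluster. Of the 115 member genes with a position in RefSeq, 23 lay in 19 clusters that held a further measured precursor, and 92 lay in none. At least 2 member genes fell in 3 of these clusters: MIR221 with MIR222, MIR1914 with MIR647, and MIR3689A with MIR3689D1 and MIR3689F.

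MIR221 and MIR222 share a seed and a transcript, and are known to repress the cell cycle inhibitor p27. RefSeq places the MIR221 hairpin at chrX:45746157-45746266 and the MIR222 hairpin at chrX:45747015-45747124, both on the minus strand of GRCh38.p14 and inside the noncoding host MIR222HG. The hairpins are the part of the transcript that these probe sets are named for, and the mature strands in the table are in capitals.
MIR221: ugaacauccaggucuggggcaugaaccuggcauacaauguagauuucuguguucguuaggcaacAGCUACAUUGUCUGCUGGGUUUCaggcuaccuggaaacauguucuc
MIR222: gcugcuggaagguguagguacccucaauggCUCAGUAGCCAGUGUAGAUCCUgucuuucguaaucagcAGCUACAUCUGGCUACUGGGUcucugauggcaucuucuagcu
MIR221 read 9.16, 9.05 and 9.03 in control arrays 1 to 3 and 8.77, 8.73 and 9.09 in labelled arrays 1 to 3 (log2 signal). The log2 change of -0.21 had a 95% interval from -0.47 to 0.049 (limma adjusted p = 0.572). MIR222 read 7.23, 7.08 and 7.24 in control and 6.91, 6.85 and 7.31 in the labelled arrays. The log2 change of -0.16 had a 95% interval from -0.47 to 0.15 (limma adjusted p = 0.709). Labelled arrays 1 and 2 lay below all controls for both genes, and labelled array 3 lay inside the control range for MIR221 and above it for MIR222. The groups therefore overlapped for both. Without labelled array 3 the log2 changes were -0.33 for MIR221 and -0.30 for MIR222. Without labelled array 2 they were -0.14 and -0.075, and without labelled array 1 -0.17 and -0.10.

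MIR1914 and MIR647, both inside the uridine kinase gene UCKL1 on chromosome 20, had log2 changes of -0.085 and 0.041, and UCKL1 had -0.04. In the MIR3689 group on chromosome 9, the members MIR3689A, MIR3689D1 and MIR3689F had -0.048, -0.18 and 0.053. Its copies have similar sequences that probes could share, so their separate values are uncertain. Among the cluster's probe sets under 6, a second one of MIR3689F had a log2 change of 0.35 with separated groups (limma adjusted p = 0.36), and MIR3689E had -0.48 with overlapping groups (0.485).

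Known polycistrons gave a broader view. A list of well-known ones held 77 precursor genes, of which 69 were measured by 70 probe sets; 13 of these were members. Among the 13, 11 had a negative log2 change and 2 a positive one, and the median was -0.18. Over all 70 probe sets 46 were negative and 24 positive, and the median was -0.11. Over all named probe sets 48% were negative, over all members 51.4% and over the dimmer precursor probe sets 50.5%. Some of the 70 were very dim, such as MIR106A and MIR30B at control means of 1.52 and 1.59. None of the 70 was called (limma, adjusted p below 0.05). When single arrays were left out in turn, 10 to 11 of the 13 members and 43 to 49 of the 70 probe sets remained on the lower side. Hairpins of the same transcript were read on the same arrays, so their directions are not independent. Leaving out an array does not remove that dependence, and the counts are a description. Without labelled array 1 the median of the 13 members moved to -0.10.

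The polycistron member with the largest change was MIR194-2, of a microRNA rich in intestinal epithelium, on chromosome 11. It read 6.44, 6.32 and 6.59 in control and 5.87, 6.06 and 6.22 in the labelled arrays (log2 signal). All labelled arrays lay below all controls. Its log2 change was -0.40, its interval running from -0.67 to -0.13 (limma adjusted p = 0.39). MIR192, on the same transcript, read 2.62 to 3.26 in control and had a log2 change of 0.083.

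MIR15A, known for targeting the survival gene BCL2, was the only one of the 13 whose labelled arrays all lay above the controls. It read 6.13, 6.08 and 6.28 in control and 6.46, 6.38 and 6.58 in the labelled arrays, and its log2 change was 0.31, its interval running from 0.10 to 0.52 (limma adjusted p = 0.39). Its neighbour MIR16-1, at control readings of 3.39 to 4.10, had a log2 change of -0.10. MIR181B1 had 0.30, and its groups overlapped. MIR181A1 beside it, at a control mean of 1.72, had 0.12.

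Hairpins of the same polycistron did not always share a direction. In the MIR23A, MIR27A and MIR24-2 transcript on chromosome 19, the member MIR24-2 had a log2 change of -0.36 and MIR27A -0.52, while MIR23A had 0.20. MIR27A and MIR23A were dim, with control means of 4.48 and 3.21. The labelled arrays of MIR27A all lay below its controls, and the groups of MIR24-2 overlapped. In the MIR25, MIR93 and MIR106B transcript inside MCM7, a subunit of the replicative helicase, the changes were -0.18, -0.16 and -0.10. MCM7 itself had 0.055. In the MIR99B, MIRLET7E and MIR125A transcript the changes were -0.088, -0.16 and -0.13, and MIR125A had a control mean of 2.4. The differences between neighbours were not tested.

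**Figure D2:**
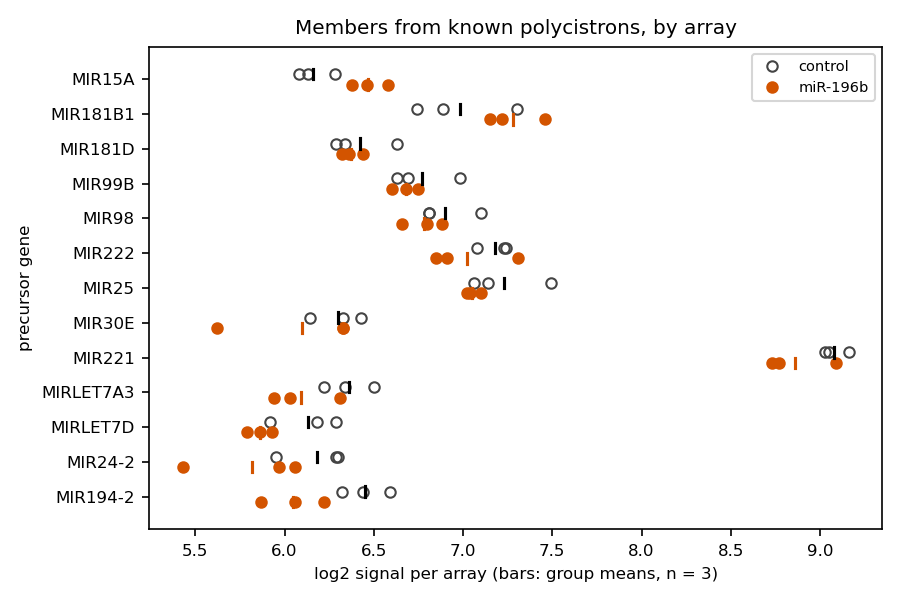
Log2 signal of the 13 members from known polycistrons on each of the 3 control arrays (open circles) and the 3 arrays labelled miR-196b (filled circles), with group means as bars. The groups are apart for MIR15A, on the higher side, and MIR194-2, on the lower side, and overlap for the other 11.

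The let-7 members had lower means in the labelled arrays, and none passed. The let-7 family restrains growth genes such as RAS and HMGA2. MIRLET7D read 6.18, 5.92 and 6.29 in control and 5.93, 5.79 and 5.86 in the labelled arrays, a log2 change of -0.27 (limma adjusted p = 0.49). MIRLET7A3 read 6.5, 6.34 and 6.22 in control and 6.03, 6.31 and 5.94 in the labelled arrays, a change of -0.26 (0.518). MIR98 read 7.10, 6.81 and 6.81 in control and 6.66, 6.80 and 6.88 in the labelled arrays, a change of -0.13 (0.726). The groups overlapped for all 3. Over the 13 measured precursor genes with the let-7 seed, dim ones included, 8 were lower and 5 higher, with a median of -0.16 and a range of -0.33 to 0.23.

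Directions differed among the other seed families. Of the pair with the miR-25 seed, MIR25 had a log2 change of -0.18 and MIR92B 0.36. MIR181B1 had 0.30 and MIR181D -0.049. Of the 7 measured precursors with that seed, dim ones included, 6 were higher (median 0.28), where 52% of all named probe sets were above 0. The groups overlapped for all 7, MIR181C among the higher had only 0.002, and MIR181A1 had a control mean of 1.72. MIR21 and MIR590 share a seed, with changes of 0.31 and -0.15. MIR3916 and MIR3125 share another, with changes of 0.31 and 0.037.

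MIR21, among the most abundant microRNAs of colorectal tumours, lies at the end of the gene VMP1. It read 8.43, 8.41 and 8.17 in control and 8.51, 8.51 and 8.92 in the labelled arrays, so that the groups were apart with labelled array 3 highest. The log2 change was 0.31, its interval running from -0.011 to 0.63 (limma adjusted p = 0.507). VMP1 had a log2 change of 0.036.

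The members with the smallest p on the lower side were MIR544B, MIR4292, MIR375, MIR1227 and MIR622. MIR544B, in the pyrimidine synthesis gene UMPS at chr3:124732439-124732516 (GRCh38.p14, plus strand), came first, and its hairpin is shown for that reason with the mature strand in capitals.
MIR544B: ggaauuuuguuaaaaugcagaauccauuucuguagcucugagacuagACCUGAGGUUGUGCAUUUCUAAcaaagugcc
It read 6.11, 6.14 and 6.46 in control and 5.60, 5.46 and 5.60 in the labelled arrays (log2 signal). Control was at 6.24 ± 0.191 and the labelled arrays at 5.56 ± 0.0789 (log2, SD, n = 3 each), with a gap between the groups. The log2 change came to -0.68 (SE 0.11), or 1.60-fold (limma adjusted p = 0.201). UMPS had -0.08. With a trended, robust variance prior MIR544B was called (limma adjusted p = 0.0259), in a fit that called 91 of all 16098 named probe sets. Across 13 other fits, that one included, its limma adjusted p ranged from 0.0259 to 0.493.

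MIR375, a microRNA of endocrine and mucosal epithelium that lies in no host gene here, read 7.20, 6.96 and 6.95 in control and 6.70, 6.63 and 6.63 in the labelled arrays. Its log2 change came to -0.38 (SE 0.091, limma adjusted p = 0.346), and the groups were apart. MIR4292 was read by a pair of probe sets. One read 5.93, 6.17 and 6.01 in control and 5.28, 5.55 and 5.70 in the labelled arrays, a log2 change of -0.52 (limma adjusted p = 0.343). The other read 6.72, 6.80 and 6.61 in control and 5.91, 6.37 and 6.53 in the labelled arrays, a change of -0.44 (0.452). Both had separated groups, and labelled array 1 was lowest in both. MIR1227 had a log2 change of -0.49 and MIR622 of -0.31, also with separated groups.

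On the higher side the smallest p belonged to MIR3916, MIR15A, MIR4730, MIR604 and MIR4525. MIR3916 read 7.53, 7.66 and 7.50 in control and 7.90, 7.96 and 7.77 in the labelled arrays. Its log2 change came to 0.31 (SE 0.086, limma adjusted p = 0.36). MIR4730 had 0.29, MIR604 0.36 and MIR4525 0.29, each with separated groups and adjusted p of 0.407 to 0.437. MIR604 lies in SVIL, an actin-binding protein gene, which had a log2 change of 0.036.

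A single mature strand is given for each of these leading members except MIR375, with the seed in capitals. No seed recurs among the strands shown. Outside these, miR-3916 shares its seed with miR-3125.
hsa-miR-544b: aCCUGAGGuugugcauuucuaa
hsa-miR-4292: cCCCUGGGccggccuugg
hsa-miR-1227-3p: cGUGCCACccuuuuccccag
hsa-miR-622: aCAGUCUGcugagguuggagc
hsa-miR-3916: aAGAGGAAgaaauggcugguucucag
hsa-miR-15a-5p: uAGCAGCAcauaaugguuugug
hsa-miR-4730: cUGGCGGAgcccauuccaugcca
hsa-miR-604: aGGCUGCGgaauucaggac
hsa-miR-4525: gGGGGGAUgugcaugcugguu

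MIR3189 had the largest change of any member and was singled out after its values were seen. It lies in the stress-response gene GDF15, a target of p53. It read 5.25, 6.39 and 6.53 in control and 6.79, 6.49 and 7.53 in the labelled arrays. Control array 1 and labelled array 3 stood away from their groups, and the groups overlapped. The log2 change came to 0.88 (SE 0.38), its interval running from -0.017 to 1.78 (limma adjusted p = 0.506). Without control array 1 the change was 0.48, and without labelled array 3 it was 0.59. GDF15 had 0.13.

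Host genes were set beside their precursors for 42 member genes, over 50 pairs of probe sets. The pairs share their arrays, so they are a description. In 31 of the 50 both changes had the same sign. No host was called (limma), and 5 of 46 host probe sets had an unadjusted p below 0.05 (TRIB2, CHD2, PHC2, NOTCH1 and SND1), or 10.9% beside 9.87% of all named probe sets. PHC2, a Polycomb subunit, had a log2 change of 0.46 and its precursor MIR3605 had 0.30. NOTCH1, a signalling receptor, had -0.21, and the probe sets of MIR4673 within it had -0.23 and -0.18. TRIB2, a pseudokinase, had 0.40 at one probe set, and MIR3125 within it 0.037. SND1, a nuclease of the silencing complex, had 0.21 and MIR593 within it -0.014, and CHD2, a chromatin remodeller, had 0.21 and MIR3175 0.088. The median size of the log2 change was 0.13 for members with a measured host and 0.08 for the hosts, with median within-group SDs of 0.154 and 0.105.

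**Figure D3:**
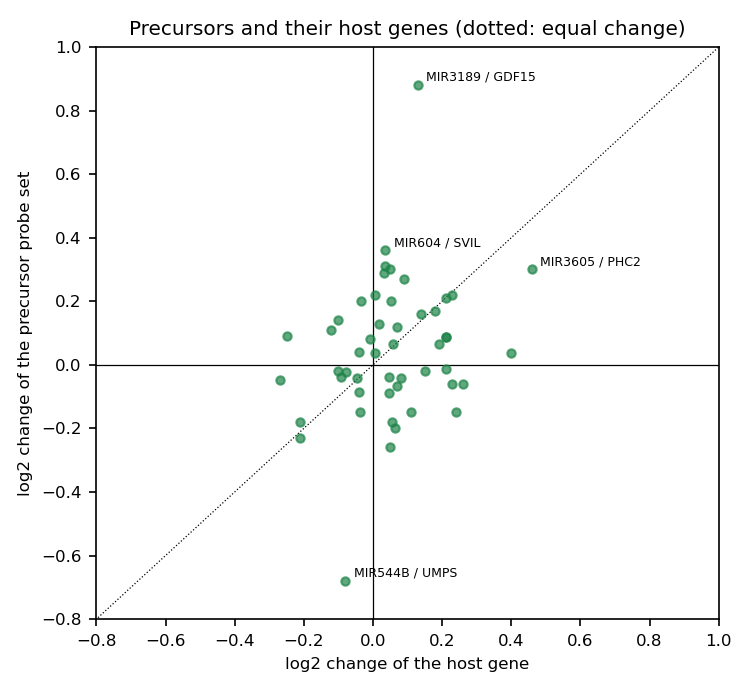
Log2 change of the precursor probe set (vertical) against that of its host gene's probe set (horizontal), labelled miR-196b minus control, for 50 pairs; the dotted line marks equal change. MIR3189 and MIR544B lie far from their hosts GDF15 and UMPS, whose changes were 0.13 and -0.08.

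None of the members with the highest signal passed the test. They were MIR4737, MIR5047, MIR3143, MIR221, MIR4442 and MIR574. MIR4737 read 12.1 to 12.3 on every array, with a log2 change of -0.001 and an interval of -0.19 to 0.19. MIR5047 had -0.043, and its host DDX5, an RNA helicase that assists DROSHA, had -0.046. MIR221 had -0.21, MIR3143 -0.14, MIR4442 0.049 and MIR574 0.18. Signals of different probe sets depend on their probes, so their order is no order of transcript abundance.

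The name of the set was checked against the data, and a signal of 6 was not tested against background. Members include microRNAs known as markers of other cells, such as MIR486-1 of red blood cells (control mean 6.13 and 6.76 at its probe sets) and MIR891A of the epididymis (7.28). Not all such microRNAs were bright: MIR144 was at 1.86, MIR888 at 2.61 and MIR892B at 1.43. These examples were not drawn from a fixed list. In the large imprinted cluster on chromosome 14 around MIR539, 1 of 42 measured genes was a member, and the median control level was 2.47. The hairpins of members also had more G and C: a median of 59.9% over 105 genes, beside 47.1% over 775 dimmer ones. Across 952 precursor probe sets with a hairpin sequence, the control level and the hairpin's G and C content had a Spearman correlation of 0.624. Within the members alone, whose levels the threshold limits, it was 0.0191 over 115 probe sets. These probe sets share arrays, and the bases of the probes were not used here. Of the probe sets whose hairpin had 70% or more G and C, 52.6% were members, and of those under 40%, 3.16%. The log2 change had a correlation of -0.0807 with G and C content over the same 952. The part of base composition in the signal was not tested. The set is therefore described by its rule, as precursor probe sets of high signal.

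**Figure D4:**
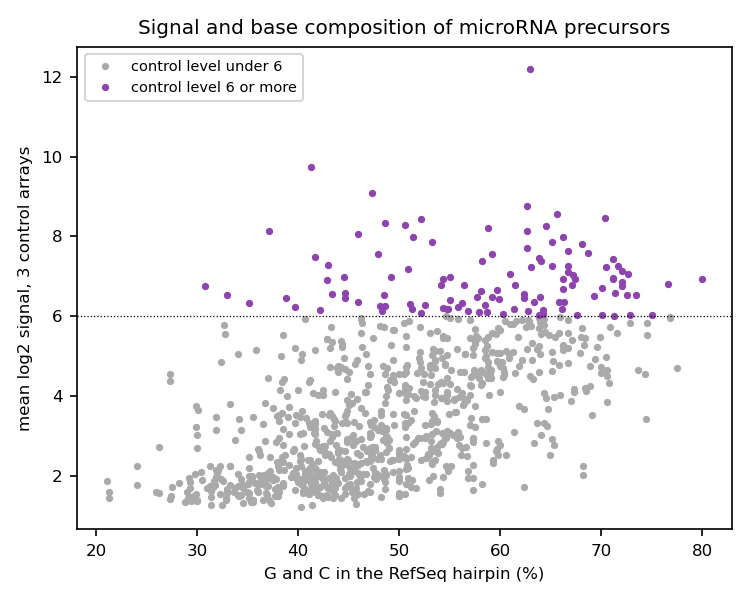
Mean log2 signal of the 3 control arrays against the percentage of G and C in the RefSeq hairpin, for 952 precursor probe sets, with members in purple. The share of members was 3.16% below 40% G and C and 52.6% at 70% or more.

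Several genes were read more than once. For 11 member genes with a pair of probe sets of different values, both at 6 or more, the log2 changes of a pair differed by at most 0.16, and 9 pairs had 1 direction. A further probe set under 6 was read for 6 member genes, and there the log2 change differed from that of the brightest member probe set by up to 0.38 (MIR3622A, 0.25 and -0.13). A further 5 probe sets repeated the values of another of their gene on every array (MIR3175, MIR4454, MIR486-1 and MIR574), which leaves 133 distinct sets of values.

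At the threshold, MIR4522 and MIR619 lay just inside (control means 6.0 and 6.02) and MIR642A and MIR4530 just outside (5.99 and 5.98). With the threshold set on the mean of all 6 arrays instead, 131 of the 138 remained and 2 were gained. The 7 lost all had negative log2 changes, MIR544B and MIR4292 among them. That sign follows from the choice and is no result. A control mean of 6 or more with a mean below 6 over all 6 arrays requires a lower labelled mean. The 2 gained had to be higher for the same reason.

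The genes that process and use microRNAs were measured in part. Of 27 genes on a list of this machinery, 16 had a probe set, 9 above 0 and 7 below (median log2 change 0.026), and 0 were called (limma, adjusted p below 0.05); 1 had an unadjusted p below 0.05. DIS3L2, the exonuclease that degrades uridylated let-7 precursors, had 0.23, TNRC6B, an Argonaute partner, 0.19, and XPO5 0.031. LIN28B, which blocks let-7 processing, had a mean log2 signal of 2.72 in control cells and 2.53 in labelled ones.

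Of the markers of colon epithelium, EPCAM was at 11.0 and KRT19 at 10.1 in control (log2), while CDX1 was at 5.21 and VIL1 at 4.13. Of 9 probe sets for 8 of these genes, 7 had a negative log2 change, with the groups apart for CDX2, KRT20 and 1 of the KRT18 probe sets, and 0 were called (limma). Over all named probe sets, 48% were negative and 17.2% had groups apart. The part of these markers in the members' values was not tested. Markers of fibroblasts, blood cells and endothelium had control levels of 2.00 to 5.01 and none was called. The labelled arrays all lay above the controls for CSF1R of blood cells (log2 change 0.31) and LUM of fibroblasts (0.18), as for 10% of all named probe sets. All arrays had medians of 4.34 to 4.37 over all probe sets. No batch was given for the arrays.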

How the data were processed

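Biotin-labelled total RNA was hybridised to whole-transcript arrays, as the labels' protocols describe. The authors deposited log2 signals, one for each probe set on each array. The submitters' processing notes list RMA and Partek 6.6 but neither their order nor their settings. RMA equalises the arrays' distributions, so an overall shift between groups cannot be seen. The number of arrays limits the precision. No genome build is given in the sources used here.

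Probe sets were named through the platform annotation. All 16098 named probe sets were fitted with lmFit and eBayes in limma 3.58.1 (R 4.3.3), labelled miR-196b minus control, with Benjamini-Hochberg adjustment over all of them. With 3 arrays in each group, the smallest p of an exact permutation test is 0.1. The fit was tested on simulated data.

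The members and lists were chosen with earlier results of these data known. Named were members of clusters, the 6 brightest, the 5 smallest p in each direction, those at the threshold, their hosts, and up to 3 genes of each list. MIR3189, MIR21 and the further polycistron, seed-family and marker genes were named after their values were seen. Sequences, strands and positions came from RefSeq (GRCh38.p14); 105 member genes had a hairpin and 17 did not. A host is a protein-coding or lncRNA gene on the same strand that spans the precursor.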

Additional observations from a re-analysis of the deposited data

How the results depend on the processing

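With the other fits and with any array left out, 0 members were called (limma), except with a trended, robust variance prior. There 1 member was called (MIR544B), beside 91 of all 16098 named probe sets, and 29 members had an unadjusted p below 0.05. Leaving out an array gave 16 to 24 members at that p and 28 to 43 with separated groups, where fewer arrays make separation easier. The matching shares of all named probe sets are not given for these settings, so these counts cannot be set against them. A threshold of 5 gave 44 separated members and 37 at that p among 317, and a threshold of 7 gave 8 and 6 among 52. Over all named probe sets in the main fit, 17.2% were separated and 9.87% passed that p. The median log2 change lay between -0.03 and 0.04 throughout. Of the known polycistrons, 1 probe set outside the members (MIR130B) was called without the dimmest 40% and with the trended prior. MIR130B was read by a pair of probe sets. In the main fit their log2 changes were -0.66 with separated groups (limma adjusted p = 0.16) and -0.21 with overlapping groups (0.595).

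Replicate numbers did not pair the arrays: deviations of same-numbered arrays correlated at 0.0305, 0.0369 and 0.0085, and not every array correlated best with its own number. With the replicate number as a block, 0 members were called and 23 had an unadjusted p below 0.05. That fit called 1 of all 16098 named probe sets, and its share at the unadjusted p is not given.

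Values near 0 changed sign. Without one array, MIR1914 ranged from -0.19 to 0.019, MIR647 from -0.022 to 0.10, MIR3689A from -0.15 to 0.047, MIR3689F from -0.094 to 0.30, MIR4737 from -0.05 to 0.034, MIR3143 from -0.30 to 0.048, MIR4442 from -0.011 to 0.14 and MIR4522 from -0.068 to 0.12. MIR4737 was at 0.0035 with array weights and MIR4522 at -0.003 after a repeated quantile normalization; the cause was not tested. Without one array the median of MIR221 and MIR222 ranged from -0.32 to -0.11, MIR24-2 from -0.49 to -0.17, MIR98 from -0.18 to -0.028, MIR92B from 0.22 to 0.62, MIR21 from 0.17 to 0.38 and MIR181B1 from 0.18 to 0.46. Cluster medians were not run at other thresholds, which change the members of a cluster.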
